A study of Saccharomyces cerevisiae with 12 samples.

Results

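The gcr1 effect of budding yeast was compared between growth on galactose and growth on glucose. Each of the arrays of the series set RNA of a strain labelled as a gcr1 null mutant against RNA of a second strain grown on the same sugar, on dual-colour oligonucleotide arrays, and gave 1 log2 ratio per probe. The comparison used 8 of the 12 arrays, 4 from cultures on 3% galactose and 4 from cultures on 2% glucose, and the difference between the galactose mean and the glucose mean was taken for every gene measured, 5636 in all. Same-numbered arrays of the sugars were paired, which takes out whatever the dye-swap orientation adds to both. No label gives the orientation of an array. Replicates 1 and 2 were taken as one orientation and replicates 3 and 4 as the other from the correlations between arrays alone. The other 4 arrays, from cultures on 3% raffinose, entered no test and are given for reference.

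Both strains are Saccharomyces cerevisiae. The labels give the null allele only as gcr1, name neither the background nor the second strain, and give total RNA from yeast with no growth phase. The second strain was taken to be the GCR1 parent. The series holds biological replicates and a dye-swapped technical repeat of each, so the 4 arrays of a sugar come from fewer than 4 cultures and the p-values below, which rest on the spread between arrays, may be too small. The labels do not tie arrays to cultures.

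GCR1 encodes a transcriptional activator that works with Gcr2 and Rap1 at the promoters of glycolytic genes. Glucose represses genes for respiration, gluconeogenesis and the use of other sugars, largely through Mig1 and low activity of the Snf1 kinase, and it drives ribosome production. Galactose represses much less, enters through the permease Gal2 and the Leloir enzymes Gal1, Gal7 and Gal10, whose genes Gal4 switches on, and then feeds into the same glycolytic steps.

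A value below is the log2 strain ratio of a gene, labelled mutant over second strain, as a mean over arrays with its SD (n = 4 arrays), or the difference of that ratio, galactose minus glucose, with the standard error of the fit. A difference of -1 means that the mutant-to-second-strain ratio in galactose was lower by a factor of 2 than in glucose. The same number results whether the mutant or the second strain responded to the sugar, since only ratios were analysed. The channel of the mutant is not labelled. Ratios above 0 were read as more RNA in the labelled mutant because glycolytic genes that Gcr1 is known to activate read below 0. This direction is not settled, and under the opposite reading all directions given here would swap. The relative signs of replicates 1 and 2 and replicates 3 and 4 rest on named genes, which correlated above 0 between them. Over all probes some arrays of different sugars correlated at r as low as -0.312. With replicates 3 and 4 turned limma called 0 genes, with 43 at an unadjusted p below 0.05. Such turning removes what both orientations share, so these counts do not check the deposited signs.

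GCR1 (YPL075W) itself read above 0 on all 8 arrays, which goes against a null allele under this sign. Its ratio was 1.81, 1.70, 1.45 and 1.34 on the 4 galactose arrays and 0.48, 0.49, 0.43 and 0.20 on the 4 glucose arrays. The galactose arrays all lay above the glucose arrays, and the difference was 1.18 ± 0.12 (limma, adjusted p = 4.49e-05). Whether the GCR1 probes lie inside the deleted stretch is unknown here, so GCR1 does not check the labels. GCR2, whose product binds Gcr1, had a difference of 1.23 ± 0.14 and lay above 0 in galactose (0.64 ± 0.23) and below it in glucose (-0.59 ± 0.057). TYE7, which encodes another activator of glycolytic genes, was above 0 in both sugars, at 2.80 ± 0.29 and 1.63 ± 0.22. RAP1 was below 0 in both, at -0.83 ± 0.35 and -1.20 ± 0.15. All 6 regulators listed, with ABF1 and REB1 added, were called higher in galactose than in glucose, as were 36.6% of all genes. The call of RAP1 was lost without the replicate block (adjusted p = 0.15) and with each array centred on its median (adjusted p = 0.0684). With the block kept it was also lost without replicate 1 (adjusted p = 0.102), 2 (0.188) or 3 (0.0842).

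The strain ratio of 3718 of the 5636 genes, 66.0%, differed between the sugars (limma with the replicate number as a block, Benjamini-Hochberg adjusted p under 0.05). It was higher in galactose for 2061 genes (36.6%) and lower for 1657 (29.4%). The difference passed 1 upwards for 824 called genes (14.6%) and downwards for 622 (11.0%). Which direction held more genes depended on centring. With each array centred on its median, 1791 genes were called higher and 2125 lower, and 618 and 798 by over 1. The 4 galactose arrays did not overlap the 4 glucose arrays for 2685 genes (47.6%), and for 1388 of the 1446 genes past 1. The 1446 genes were chosen by the difference on the same arrays, so their count lends the calls no support.

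Few of these 1446 genes were called in the same direction in both sugars. A gene not called in a sugar may still have shared the direction. Choosing genes by a wide difference also favours such patterns in advance. Tested against 0, 35.4% of all genes were higher and 26.0% lower in galactose, and 27.0% were higher and 32.3% lower in glucose. Of the 622 genes with a lower ratio in galactose, 177 were below 0 in galactose and above 0 in glucose, 179 were called only as higher in glucose, 127 only as lower in galactose, and 91 were above 0 in both. Of the 824 genes with a higher ratio in galactose, 413 were above 0 in galactose and below 0 in glucose. A further 227 were called only as higher in galactose and 145 only as lower in glucose.

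**Figure D1:**
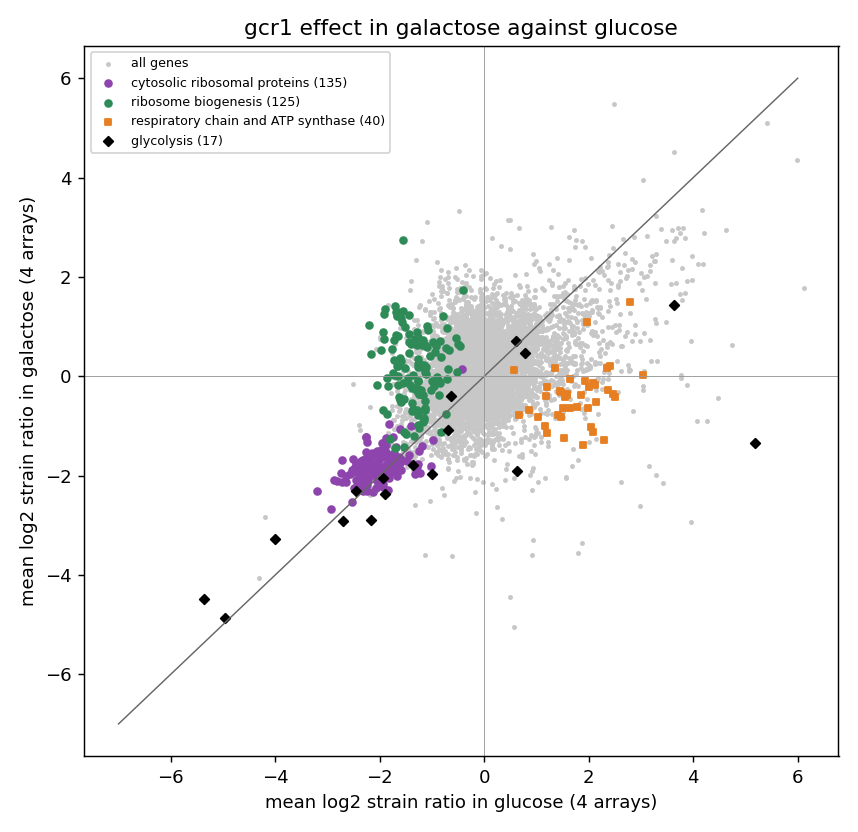
Mean log2 strain ratio in galactose (y axis) against glucose (x axis) for 5636 genes in grey, with 4 gene lists in colour and the line of equal ratios. Glycolytic genes at the lower left lie near the line, the 40 respiratory genes lie below it at glucose ratios above 0, and most ribosome biogenesis genes lie above it at glucose ratios below 0.

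Of 17 glycolysis genes, 8 were called lower in galactose, 2 higher and 7 did not pass the test, where 66.0% of all genes were called. The median difference was -0.32, against 0.062 over all genes. Among those that did not pass were several with some of the lowest ratios of the pathway in both sugars. The phosphoglycerate mutase gene GPM1 (YKL152C) read -4.19, -3.86, -5.66 and -5.72 on the galactose arrays and -3.88, -4.07, -5.80 and -6.11 on the glucose arrays. The ranges overlapped, and the difference of 0.10 ± 0.15 did not pass the test (adjusted p = 0.549). The pyruvate kinase gene CDC19 differed by 0.16 ± 0.17, the triose phosphate isomerase gene TPI1 by -0.21 ± 0.13 and the aldolase gene FBA1 by -0.11 ± 0.17, none past the test. These misses do not show equal ratios, and the standard errors, like the p-values, may be too small. The same-numbered differences of GPM1, CDC19 and FBA1 held both signs. The ratios of CDC19, TPI1 and FBA1 were -2.30 ± 0.71, -2.91 ± 0.68 and -2.05 ± 0.65 in galactose.

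Smaller shifts in this stretch of the pathway went both ways. Both enolase genes were less low in galactose, ENO2 by 0.89 ± 0.15 (adjusted p = 0.000805) and ENO1 by 0.73 ± 0.17. ENO2 read -3.73, -3.70, -5.05 and -5.43 in galactose against -4.25, -4.61, -6.39 and -6.23 in glucose. The glyceraldehyde phosphate dehydrogenase genes TDH3 (-0.74 ± 0.12) and TDH2 (-0.43 ± 0.12), the phosphoglycerate kinase gene PGK1 (-0.47 ± 0.12), the phosphofructokinase gene PFK2 (-0.39 ± 0.12) and the glucose phosphate isomerase gene PGI1 (-0.97 ± 0.12) were lower in galactose. ENO1 and ENO2, and TDH2 and TDH3, are near-identical pairs that probes may not separate. Without the replicate block, 5 glycolysis genes were called lower and 0 higher. The calls then lost were those of ENO2 (adjusted p = 0.22), ENO1 (0.114), TDH2 (0.272), PGK1 (0.399) and PFK2 (0.275). Calls were also lost in fits that kept the block. PFK2 lost its call without replicate 2, 3 or 4 (adjusted p = 0.104, 0.052 and 0.0963). TDH2 lost it without replicate 2 or 3 (0.0667 and 0.0525) and PGK1 without replicate 2 (0.0509). PFK1, TDH1 and the minor pyruvate kinase gene PYK2 did not pass the test, with differences of 0.23, 0.086 and -0.32. PYK2 did pass with arrays centred (-0.48, adjusted p = 0.00506) and without replicate 1 (-0.45, adjusted p = 0.0159), and PFK1 with the orientation as the block (adjusted p = 0.0379). With replicates 1 and 4 and replicates 2 and 3 averaged, CDC19 (adjusted p = 0.0265), TPI1 (0.00672), PFK1 (0.00601) and PYK2 (0.0018) passed. That fit keeps few values per gene and leans on the spread pooled over genes, so these passes do not show a difference.

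The sugars parted widely at the entry step to glycolysis. HXK1 (YFR053C), the hexokinase gene that glucose normally represses, read -0.84, -0.90, -1.71 and -1.89 in galactose and 5.42, 5.60, 4.91 and 4.78 in glucose. It was low in galactose and far above 0 in glucose on every array, a difference of -6.51 ± 0.13 or 91.3-fold (adjusted p = 1.29e-08). HXK2 (YGL253W), the main hexokinase gene of glucose-grown cells, went the same way, from 0.63 ± 0.62 in glucose to -1.91 ± 0.58 in galactose. The glucokinase gene GLK1 (YCL040W) was above 0 in both, at 1.43 ± 0.53 in galactose and 3.64 ± 0.43 in glucose. EMI2, a homologue of GLK1, differed by -3.31 ± 0.17. GPM2, a homologue of GPM1, was above 0 in both sugars but less so in galactose (4.36 ± 0.16 against 5.99 ± 0.21, difference -1.63 ± 0.16).

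**Figure D2:**
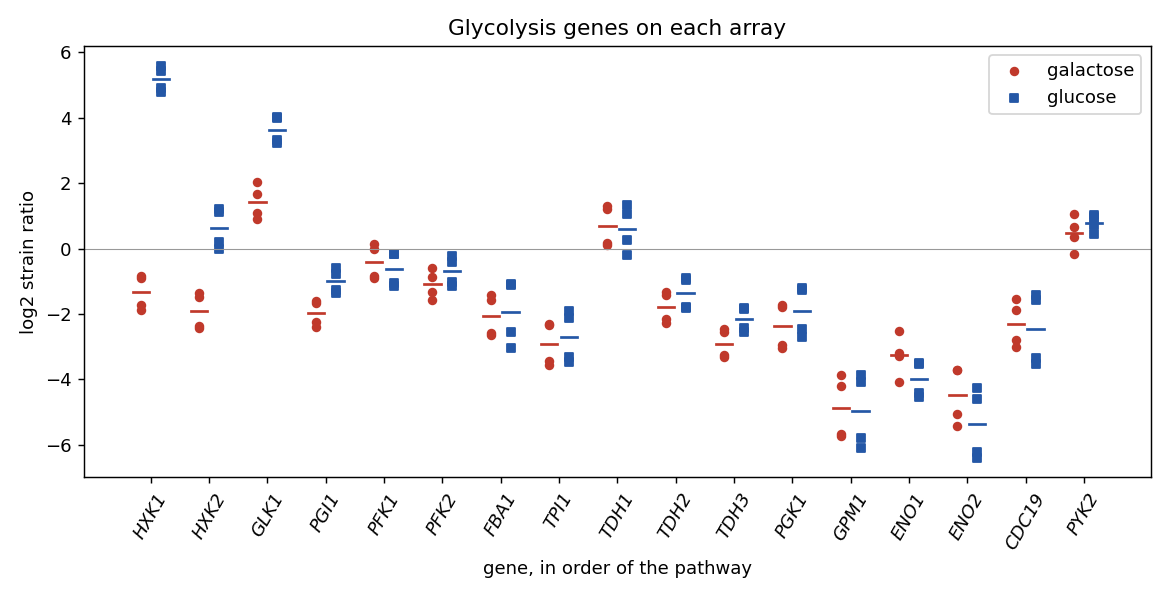
Log2 strain ratio of 17 glycolysis genes on each array (y axis), ordered by pathway step, with circles for the 4 galactose arrays, squares for the 4 glucose arrays and a bar at each mean. The sugars separate widely at HXK1, HXK2 and GLK1, and their arrays intermix at GPM1 near -5.

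All 40 genes of the respiratory chain and ATP synthase were called lower in galactose than in glucose, 38 of them by over 1, against 29.4% and 11.0% of all genes. The list's median ratio was 1.71 in glucose and -0.39 in galactose, and the median difference was -2.20. In glucose 40 were called above 0. In galactose 19 were called below 0 and 2 above. The electron carrier gene CYC1 (YJR048W) had the lowest difference of the list, -3.58 ± 0.17, with -1.02, -0.76, -1.88 and -1.48 on the galactose arrays and 2.84, 2.56, 2.12 and 1.64 on the glucose arrays. Every galactose array read below 0 and every glucose array above it.

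The tricarboxylic acid cycle moved alike. All 17 of its genes were called lower in galactose, 12 by over 1, and the median was 1.89 in glucose and -0.31 in galactose. The succinate dehydrogenase genes SDH1 to SDH4, which both lists hold, differed by -3.20, -2.91, -3.06 and -3.28. In raffinose the medians of both lists lay in between, at 0.62 and 0.61. Raffinose means were between the other sugars for 37 of 40 respiratory genes and 16 of 17 cycle genes. Of genes that regulate respiration, HAP3, a subunit gene of the CCAAT-binding activator, was lower in galactose (-1.24 ± 0.16), and RTG2, a sensor gene of the retrograde response, was higher (1.61 ± 0.23). Of 8 retrograde response genes 6 were lower in galactose and 2 higher, against 29.4% and 36.6% of all genes. The higher ones, the peroxisomal citrate synthase gene CIT2 (4.51 ± 0.37 in galactose and 3.64 ± 0.40 in glucose) and the lactate dehydrogenase gene DLD3 (3.95 ± 0.57 and 3.04 ± 0.47), were far above 0 in both sugars.

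Several genes for using ethanol and lactate lay on opposite sides of 0 in the sugars. ADH2 (YMR303C), which encodes the alcohol dehydrogenase that oxidises ethanol, read -2.26, -2.41, -2.84 and -2.98 in galactose and 2.97, 2.77, 3.27 and 2.92 in glucose. The groups lay on opposite sides of 0 on every array, 48.6-fold apart (-5.60 ± 0.18, adjusted p = 9.79e-08). The lactate dehydrogenase gene CYB2 (YML054C) read -1.55, -1.79, -2.47 and -2.82 in galactose and 3.35, 3.51, 3.37 and 3.44 in glucose. The lactate permease gene JEN1 (YKL217W) was at -1.82 ± 0.43 in galactose and 3.16 ± 0.19 in glucose. The mitochondrial aldehyde dehydrogenase gene ALD4 (YOR374W) was at -0.91 ± 0.49 and 4.26 ± 0.36. MPC3 (YGR243W), which encodes a subunit of the mitochondrial pyruvate carrier, was at -1.99 ± 0.50 and 3.28 ± 0.28. Each of these genes was low in galactose and high in glucose.

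Of 23 genes of gluconeogenesis, the glyoxylate cycle and lactate use, 19 were called lower in galactose and 1 higher, with a median difference of -1.57. Their median was 1.57 in glucose and 0.004 in galactose. The fructose bisphosphatase gene FBP1 differed by -3.62 ± 0.16 and the lactate dehydrogenase gene DLD1 by -3.49 ± 0.12. The member with a higher ratio in galactose was the malic enzyme gene MAE1 (2.26 ± 0.12). Of 24 peroxisome and beta-oxidation genes 14 were lower and 3 higher, where 29.4% of all genes were called lower and 36.6% higher. The members with the lowest differences included the dienoyl-CoA reductase gene SPS19 at -4.97 ± 0.16, the acyl-CoA oxidase gene POX1 at -4.75 ± 0.34 and the thiolase gene POT1 at -3.74 ± 0.17.

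Genes for sugars that neither medium supplied were lower in galactose as well. Of 14 sucrose and maltose genes, 12 were called lower and 0 higher, against 29.4% and 36.6% of all genes. The median difference was -1.83. The invertase gene SUC2 (YIL162W) read -3.94, -3.93, -4.96 and -4.96 in galactose and 0.78, 0.75, 0.30 and 0.17 in glucose. It was far below 0 in galactose and within 1 of 0 in glucose (-4.94 ± 0.15). The maltase genes MAL12 and MAL32, close paralogs that probes may not tell apart, had higher means in glucose than SUC2. They went from 1.79 ± 0.80 and 1.87 ± 0.72 in glucose to -3.55 ± 0.17 and -3.37 ± 0.14 in galactose. MAL33, the gene of a maltose activator, differed by -3.49 ± 0.22.

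Of the 10 galactose utilisation genes, 8 were called lower in galactose than in glucose and 1 higher, against 29.4% and 36.6% of all genes. The median difference was -1.64. The galactokinase gene GAL1 (YBR020W) read -1.25, -1.66, -2.46 and -2.80 on the galactose arrays and 0.77, 0.65, 1.66 and 1.56 on the glucose arrays. It was below 0 on every galactose array and above 0 on every glucose array, with a difference of -3.20 ± 0.37 (adjusted p = 6.79e-05). The uridylyltransferase gene GAL7 (YBR018C) differed by -2.15 ± 0.33 and the activator gene GAL4 (YPL248C) by -1.65 ± 0.13. PGM2, which encodes the major phosphoglucomutase at the end of the Leloir pathway, differed by -2.22 ± 0.16. The epimerase gene GAL10 did not pass the test (-1.03 ± 0.45, adjusted p = 0.0703). It passed with arrays averaged in any of 3 ways (adjusted p = 8.69e-05, 0.00162 and 3.98e-06). Its difference was -1.53 without replicate 1 (adjusted p = 1.47e-05), -1.40 without replicate 2 (0.00698) and -0.56 without replicate 4 (0.0118). These fits keep few values per gene and lean on the spread pooled over genes. The mean difference of GAL10 was 0.27 over replicates 1 and 2 and -2.34 over replicates 3 and 4. The passes therefore do not show that GAL10 differed. The member with a higher ratio was the Mediator subunit gene GAL11 (0.56 ± 0.13).

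For several of these genes the same-numbered differences parted between replicates 1 and 2 and replicates 3 and 4. The same-numbered differences of GAL1 were -2.02, -2.31, -4.11 and -4.35 for replicates 1 to 4. Those of GAL2 (YLR081W) were 0.56, -0.61, -3.54 and -2.89, and those of GAL10 0.47, 0.07, -2.22 and -2.46. For these genes replicates 3 and 4 gave clearly lower differences than replicates 1 and 2, and the sign itself differed for replicate 1 of GAL2 and for replicates 1 and 2 of GAL10. GAL2 was called (-1.62 ± 0.56, adjusted p = 0.03), but not without replicate 3 of either sugar (difference -0.98, adjusted p = 0.141). GAL4 and PGM2 were steadier, with same-numbered differences of -1.50, -1.53, -1.74 and -1.84 and -1.78, -2.09, -2.30 and -2.70. Over all genes, the mean difference of replicates 1 and 2 and that of replicates 3 and 4 lay over 1 apart for 193 genes. For 420 genes both differences of replicates 1 and 2 had 1 sign and both of replicates 3 and 4 the other.

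**Figure D3:**
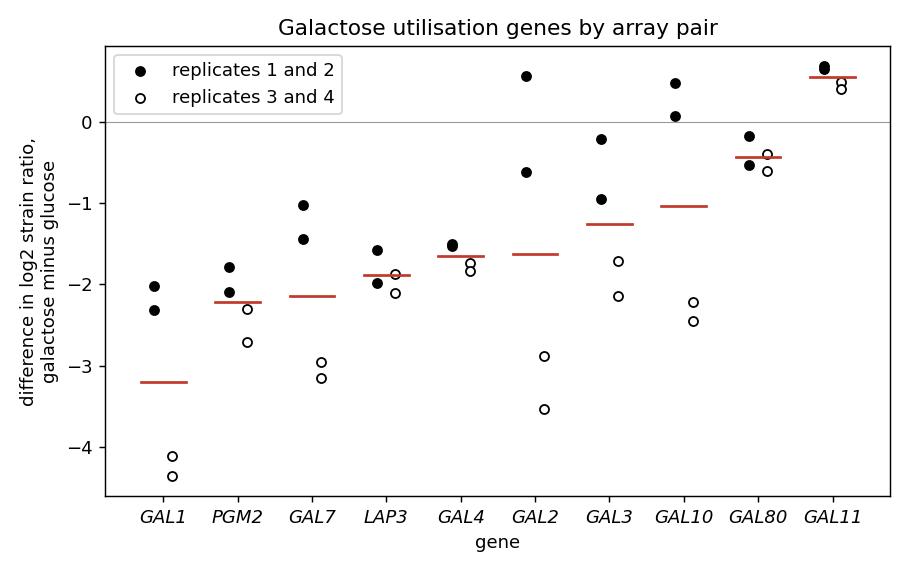
Difference in log2 strain ratio, galactose minus glucose, of each same-numbered array pair (4 points per gene) for 10 galactose utilisation genes, with filled points for replicates 1 and 2, open points for replicates 3 and 4 and a bar at the mean. For GAL1, GAL2, GAL7 and GAL10 the open points lie 1 or more below the filled points, while those of GAL4 and GAL80 lie close together.

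Hexose transport genes mostly had a lower ratio in galactose. Of 21 transport and sensing genes, 15 were lower in galactose and 1 higher, against 29.4% and 36.6% of all genes. The transporter genes HXT10 (-4.23 ± 0.20), HXT2 (-3.01 ± 0.15) and HXT4 (-2.77 ± 0.13) were on the lower side. HXT2 was below 0 in both sugars, at -3.62 ± 0.63 in galactose and -0.61 ± 0.35 in glucose. MTH1, which encodes a corepressor of transporter genes, was at -2.03 ± 0.41 in galactose and 1.56 ± 0.46 in glucose, while its homologue STD1 went the other way, at 0.82 ± 0.21 and -0.50 ± 0.12.

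Of 22 genes of glucose repression and the Snf1 pathway, 7 were lower and 8 higher, close to the share of all genes. CAT8 (YMR280C), the activator gene of gluconeogenesis, read -1.21, -1.28, -1.69 and -1.69 in galactose and 1.43, 1.54, 1.70 and 2.13 in glucose, with no overlap (-3.17 ± 0.20). ADR1, the activator gene of ADH2 and of peroxisomal genes, was at 0.002 ± 0.38 in galactose and 1.70 ± 0.20 in glucose. The Snf1-activating kinase genes TOS3 (1.84 ± 0.32), ELM1 (1.20 ± 0.14) and SAK1 (1.19 ± 0.15) were higher in galactose.

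Ribosome biogenesis went the opposite way to respiration. Of 125 assembly and rRNA processing genes, 114 were called higher in galactose than in glucose, 88 by over 1, and 0 lower, against 36.6% and 14.6% of all genes called higher. In glucose all 125 were called below 0, with a median of -1.29. In galactose the median was 0.16, with 49 genes above 0 and 30 below. RRP14 (YKL082C), which is needed for both ribosomal subunits, read 3.14, 2.76, 2.74 and 2.33 in galactose and -1.73, -1.16, -1.84 and -1.49 in glucose. Its groups were far apart (4.29 ± 0.19, or 19.6-fold, adjusted p = 6.28e-07). The large-subunit assembly genes NOP4 (3.24 ± 0.15), EBP2 (3.14 ± 0.14) and REA1 (3.29 ± 0.14) and the small-subunit assembly genes ESF1 (3.26 ± 0.25) and ENP2 (3.19 ± 0.14) followed.

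The raffinose median of the biogenesis genes was 0.048, and 119 of 125 had a raffinose mean nearer to galactose than to glucose. So did 105 of 135 cytosolic ribosomal protein genes and 27 of 35 genes of RNA polymerases I and III, but only 10 of 66 mitochondrial ribosomal protein genes. The share over all genes was not counted. In the difference between galactose and glucose, genes of RNA polymerases I and III and their factors went the way of the biogenesis genes, 24 of 35 higher and 1 lower. The polymerase III factor gene BDP1 differed by 2.72 ± 0.24 and the largest polymerase I subunit gene RPA190 by 1.80 ± 0.12. Translation factor genes were higher in 22 of 39 cases and lower in 0, among them the initiation factor genes NIP1 (1.73 ± 0.15) and TIF4631 (1.66 ± 0.14). Aminoacyl-tRNA synthetase genes were higher in 12 of 20 and lower in 0, where 36.6% of all genes were higher and 29.4% lower.

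The genes of the ribosomal proteins did not follow the biogenesis genes. The 135 cytosolic ribosomal protein genes were low in both sugars, with medians of -1.83 in galactose and -2.10 in glucose and a median difference of 0.28. Of them 55 were called higher and 4 lower, against 36.6% and 29.4% of all genes. The number called higher was thus near the share of all genes. The higher ones passed 1 in 3 cases, RPS2 (1.03 ± 0.17), RPS7B (1.03 ± 0.14) and RPL37A (1.02 ± 0.16). RPS9A (-0.79 ± 0.15) and RPP1A (-0.72 ± 0.19) were among the lower ones. The call of RPS2 was lost without the replicate block (adjusted p = 0.0828). The list's median by replicate number was -0.025, 0.44, 0.038 and 0.72, near 0 for replicates 1 and 3 and above 0 for replicates 2 and 4. The number called higher was 17 without the block, 24 with each array centred on its median, and 34 and 34 without galactose replicate 2 or 4. Many of these genes are paralog pairs with near-identical sequence.

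Mitochondrial ribosomal protein genes differed in the direction of respiration. With a median difference of -0.95, 58 of 66 were called lower in galactose and 1 higher, against 29.4% and 36.6% of all genes. Unlike the respiratory genes, they were not above 0 in glucose. The medians were -0.24 in glucose and -1.22 in galactose, and 3 were called above 0 in glucose against 23 below. MRPL39 was at -2.04 ± 0.30 in galactose and -0.28 ± 0.075 in glucose. MRPL25 was at -1.26 ± 0.27 and 0.36 ± 0.18.

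**Figure D4:**
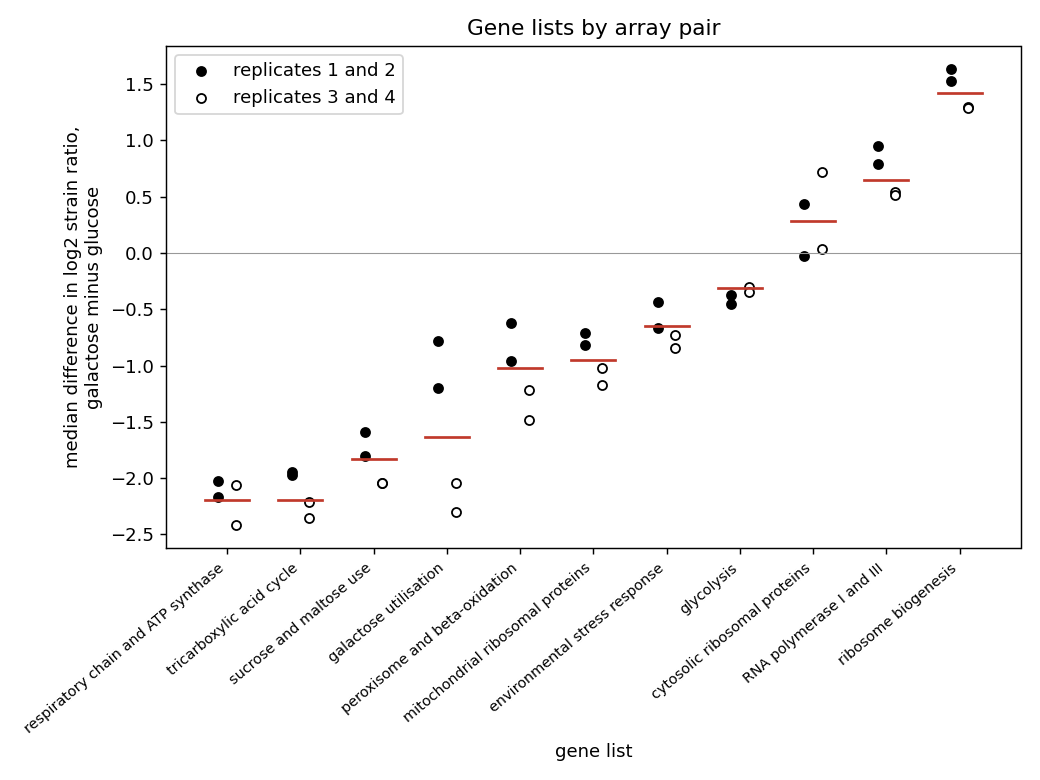
Median difference in log2 strain ratio, galactose minus glucose, of selected gene lists, with 1 point for each same-numbered array pair (filled for replicates 1 and 2, open for 3 and 4) and a bar at the median of the gene differences. The points of the respiratory list read -2.17, -2.02, -2.42 and -2.06 for replicates 1 to 4 and those of ribosome biogenesis 1.64, 1.53, 1.30 and 1.28, while those of cytosolic ribosomal proteins reach from -0.025 to 0.72.

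Stress genes were above 0 in both sugars and less so in galactose. Of 41 genes of the environmental stress response, 32 were above 0 in galactose and 34 in glucose, against 35.4% and 27.0% of all genes. In the difference 28 were called lower in galactose than in glucose and 6 higher, against 29.4% and 36.6% of all genes. The membrane-protecting small heat shock protein gene HSP12 (YFL014W) read 2.09, 2.17, 1.33 and 1.55 in galactose and 6.49, 6.24, 5.55 and 6.22 in glucose. All 8 arrays were above 0, and the difference was -4.34 ± 0.14 (adjusted p = 9.79e-08). The peroxiredoxin gene PRX1 differed by -3.24 ± 0.13. Not every member followed. The calmodulin-dependent kinase gene CMK2 was the reverse, at 3.33 ± 1.10 in galactose and -0.49 ± 0.33 in glucose, with same-numbered differences of 5.39, 2.93, 4.61 and 2.34, and the chaperone gene HSP42 was higher in galactose by 0.98 ± 0.17.

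Storage carbohydrate genes resembled them, with 12 of 20 lower in galactose and 3 higher, against 29.4% and 36.6% of all genes. The glycogen phosphorylase gene GPH1 differed by -2.44 ± 0.16 and the glycogen branching enzyme gene GLC3 by -2.12 ± 0.18, both from a ratio above 0 in each sugar. Heat shock chaperone genes split, with 10 of 20 higher and 4 lower, in all near the 66.0% called over all genes. The kinase cochaperone gene CDC37 (1.78 ± 0.20) was higher and the Hsp70 gene SSA1 (-1.94 ± 0.15) lower.

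Mating genes mostly had a higher ratio in galactose. Of 35 pheromone response and mating genes, 20 were called higher, 14 of them by over 1, and 4 lower. The shares over all genes were 36.6% higher, 14.6% by over 1, and 29.4% lower. The agglutinin anchor gene AGA1 was at 1.36 ± 0.13 in galactose and -1.13 ± 0.41 in glucose, SST2, which encodes the regulator that ends pheromone signalling, at 0.47 ± 0.21 and -1.76 ± 0.24, and the G protein alpha subunit gene GPA1 at 0.70 ± 0.49 and -1.31 ± 0.33. Genes specific to a-type cells went both ways, with the pheromone gene MFA1 (1.77 ± 0.16) and the pheromone protease gene BAR1 (1.66 ± 0.15) higher and the agglutinin gene AGA2 (-0.53 ± 0.17) lower. The call of AGA2 was lost without the replicate block (adjusted p = 0.091) and without replicate 1 (difference -0.32, adjusted p = 0.0875). Of 17 strain and mating type markers, 7 were called higher and 6 lower. MF(ALPHA)2, which encodes a pheromone of alpha-type cells, had same-numbered differences of -1.47, -1.15, -0.009 and -0.008, so that its difference of -0.66 ± 0.25 lay in replicates 1 and 2. Its call was lost without the replicate block (adjusted p = 0.494), with arrays centred (0.0674), without replicate 1 (difference -0.39, adjusted p = 0.0746) and without replicate 2 (-0.50, adjusted p = 0.113). Among biosynthetic genes that serve as strain markers, LYS2 was higher in galactose (1.44 ± 0.14), and TRP1 (-1.62 ± 0.12), MET17 (-1.18 ± 0.15) and LEU2 (-0.91 ± 0.14) were lower. The genotype of either strain at these genes is not given in the labels.

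Over all genes 29.4% were called lower and 36.6% higher. Among the remaining lists, the counts called lower and higher were 16 and 5 of 26 for nitrogen catabolite repression and 8 and 2 of 12 for glycerol metabolism. The glycerol phosphatase gene GPP2 differed by -2.95 ± 0.13. They were 15 and 8 of 28 for iron and copper, where the mannoprotein genes FIT3 (-3.21 ± 0.22) and FIT2 (-3.15 ± 0.20) were lower and the reductase gene FRE4 (2.36 ± 0.38) higher. For phosphate uptake they were 8 and 6 of 20, in all near the 66.0% called over all genes, with the transporter gene PHO89 at -2.79 ± 0.15. Amino acid biosynthesis (18 and 17 of 61) and cell wall genes (15 and 17 of 44) were called in similar numbers both ways, with median differences of -0.023 and 0.14. The cell wall median was -0.029 with each array centred on its median.

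Several of these lists held genes with large differences. The glutamate dehydrogenase gene GDH2, which releases ammonium from glutamate, was at 0.22 ± 0.44 in galactose and 2.75 ± 0.26 in glucose, and the proline permease gene PUT4 at 0.22 ± 0.31 and 2.31 ± 0.12. CPA1, a subunit gene of the carbamoyl phosphate synthetase of arginine synthesis, was near 0 in galactose (-0.047 ± 0.33) and above it in glucose (2.38 ± 0.36). The serine and threonine deaminase gene CHA1 was far below 0 in both, at -2.84 ± 0.077 and -4.19 ± 0.04. Of the wall genes, DSE1, a daughter cell gene, was at 0.28 ± 0.47 in galactose and -1.64 ± 0.32 in glucose, and the glucan synthase gene GSC2 was above 0 in both, at 1.86 ± 0.42 and 3.57 ± 0.23.

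Cyclin and proteasome genes were called no more often than all genes, of which 36.6% were higher and 29.4% lower. Of 21 cyclin genes 7 were higher in galactose and 3 lower. The G1 cyclin gene CLN1 (1.64 ± 0.13) and the mitotic cyclin gene CLB2 (1.41 ± 0.15) were higher, and the Pho85 cyclin gene PCL10 (-1.35 ± 0.19) lower. Of 10 histone genes 5 were lower and 1 higher, HHT1 by -0.85 ± 0.15 (adjusted p = 0.0548 without the replicate block). Of 33 proteasome genes 11 were higher and 3 lower. RPN4, the activator gene of the proteasome genes, was at 0.76 ± 0.38 in galactose and -0.55 ± 0.22 in glucose. Of 47 meiosis and sporulation genes 21 were lower and 6 higher.

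Isozyme genes of ethanol and acetate metabolism went both ways. The pyruvate decarboxylase genes PDC1 (0.80 ± 0.20) and PDC5 (0.50 ± 0.15) were higher in galactose and the minor gene PDC6 (-1.06 ± 0.18) lower. Without the replicate block the calls of PDC1 (adjusted p = 0.262) and PDC5 (adjusted p = 0.283) were lost. With arrays centred these calls were lost as well (adjusted p = 0.0665 and 0.135). That of PDC5 was also lost without replicate 3 (0.0679) or 4 (0.094). The mitochondrial aldehyde dehydrogenase gene ALD5 was below 0 in both sugars and less so in galactose (-0.62 ± 0.64 against -2.18 ± 0.36), the reverse of ALD4. The acetyl-CoA synthetase gene ACS1 was above 0 in both and less so in galactose, at 0.71 ± 0.24 against 2.83 ± 0.11.

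Of 18 pentose phosphate genes 10 were lower in galactose and 4 higher, against 29.4% and 36.6% of all genes. ZWF1, the gene of the first enzyme of that pathway, was higher (0.61 ± 0.13), and the transaldolase gene TAL1 (-1.35 ± 0.12) and the phosphogluconate dehydrogenase gene GND1 (-0.99 ± 0.12) were lower. CYC7, the gene of the cytochrome c isoform of low oxygen, was at 0.028 ± 0.39 in galactose and 3.05 ± 0.18 in glucose, and the hypoxic repressor gene ROX1 at 0.63 ± 0.30 and -1.02 ± 0.31. Of 17 anaerobic genes 7 were lower and 4 higher, and of 25 ergosterol genes 9 and 6, for both lists about the share called over all genes (66.0%). Sulfur and methionine genes were lower in 8 of 24 cases and higher in 3, against 29.4% and 36.6% of all genes. The cystathionine lyase gene STR3 was at 2.27 ± 0.39 in galactose and 4.18 ± 0.47 in glucose.

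Single genes outside these groups stood at both ends. TMA10 (YLR327C), whose product binds ribosomes, had the lowest difference of all genes named, -6.89 ± 0.21. It read -2.63, -2.80, -3.11 and -3.22 in galactose and 3.45, 3.97, 4.37 and 4.03 in glucose, opposite in sign on every array. The respiratory growth gene RGI2 (YIL057C) read -5.03, -4.56, -5.40 and -5.21 in galactose and 0.021, -0.20, 1.18 and 1.28 in glucose. It was far below 0 in galactose, while its glucose arrays ran from below 0 to above 1 (-5.62 ± 0.34). Its homologue RGI1 (YER067W) was lower in galactose as well. RGI1 lay nearer 0 in galactose (-0.44 ± 0.61) and far above it in glucose (4.48 ± 0.46). MRK1, the gene of a kinase related to glycogen synthase kinase 3, was at -3.59 ± 0.48 and 0.91 ± 0.40.

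At the upper end, DIA1 (YMR316W), a gene linked to invasive growth, was at 3.10 ± 0.94 in galactose and -1.10 ± 0.22 in glucose. BRE5 (YNR051C), which encodes a cofactor of a ubiquitin protease, was at 2.72 ± 0.28 and -1.20 ± 0.35, and SPA2 (YLL021W), a scaffold gene of polarised growth, at 2.35 ± 0.40 and -1.31 ± 0.31. The Golgi genes RUD3 and COG8 differed by 3.33 ± 0.18 and 3.16 ± 0.27. The polyamine exporter gene TPO2 (YGR138C) read 6.29, 5.07, 5.48 and 5.09 in galactose and 2.45, 2.65, 2.38 and 2.48 in glucose. It was above 0 in both sugars and higher in galactose by 2.99 ± 0.22, whereas its raffinose mean was -1.70.

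**Figure D5:**
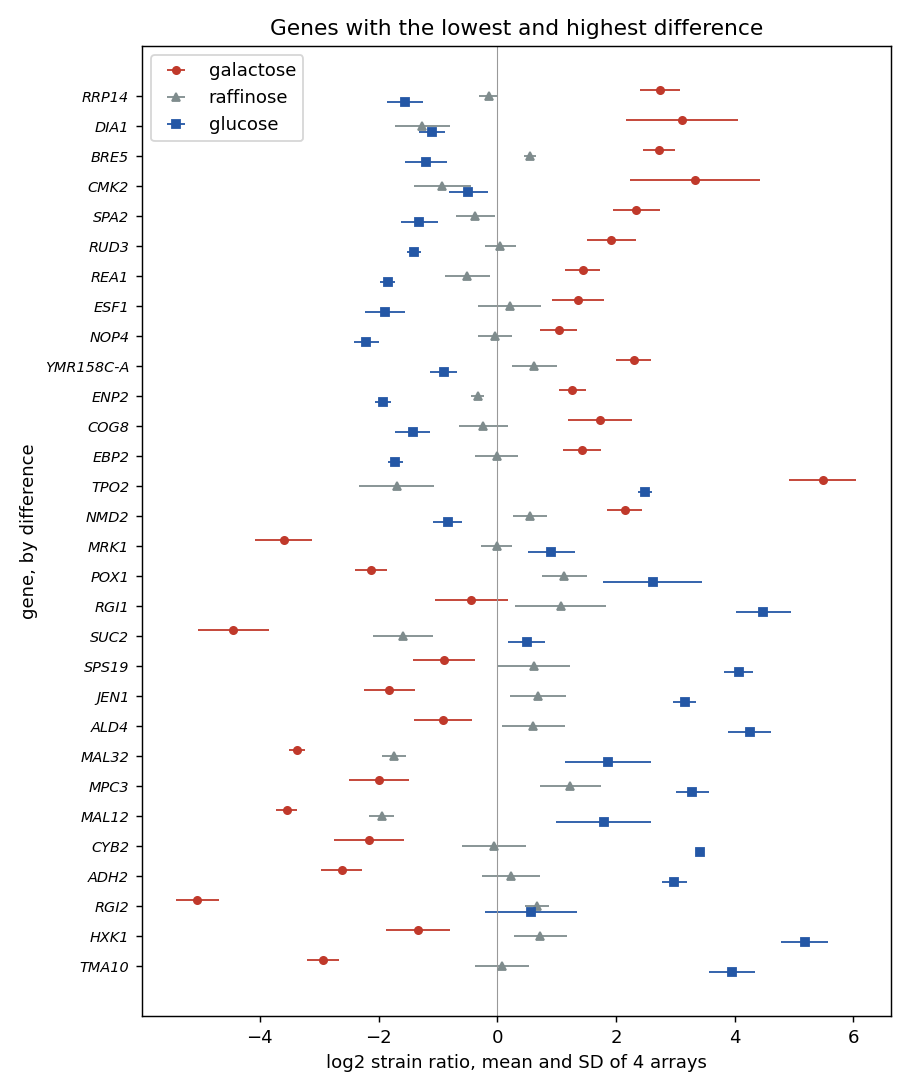
Mean log2 strain ratio in galactose, glucose and raffinose (x axis, bars show the SD of 4 arrays) of the 15 genes with the lowest and the 15 with the highest difference, by the naming rule. Every gene but TPO2 has its galactose and glucose means on opposite sides of 0, and the raffinose mean lies between them except at DIA1, CMK2, TPO2 and RGI2.

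The raffinose arrays, which took no part in choosing genes, placed most of the differing genes between the sugars. Of the 622 genes lower in galactose by over 1, 514 had a raffinose mean between the galactose and glucose means, and 353 lay nearer to galactose. Of the 824 genes higher by over 1, 699 lay between and 454 nearer to galactose. Over all genes 47.5% lay between. A wide gap leaves more room between the means, so these counts are a description. The aldo-keto reductase gene GCY1 had nearly the same mean in raffinose as in glucose, at 3.86 in raffinose, 3.89 ± 0.14 in glucose and -0.17 ± 0.61 in galactose.

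Among the 1446 genes past 1, same-numbered differences of replicates 1 and 2 lay wholly apart from those of replicates 3 and 4 for 766 genes, and those of replicates 1 and 3 apart from replicates 2 and 4 for 623. Such splits also arise by chance, and they were not counted over all genes, so nothing is concluded from these counts. The median difference over all genes was 0.21, 0.12, 0.007 and -0.019 for replicates 1 to 4. Centring each array moved the median difference over all genes from 0.062 to -0.10, small beside the differences described for single genes. Across genes, the mean difference of replicates 1 and 2 and that of replicates 3 and 4 had a Pearson correlation of 0.91, as a description, since repeats of 1 culture may stand on both sides and genes are not independent.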

How the data were processed

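Per the labels, total RNA was amplified with an Agilent kit, and channel 1 was Cy5 and channel 2 Cy3 throughout. The authors deposited 1 log2 ratio per probe and array. How they normalized the values, which log base they used and whether dye-swapped arrays were turned is not given in the sources used here. From their size they were read as log2 values. Spot intensities were not analysed here, so the number of arrays limits the precision.

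The platform annotation names a single gene for 9271 of 10807 probes. Probes of a gene were averaged with no further scaling, which gave 5636 genes, all measured on all 8 arrays. Array medians over genes lay between -0.11 and 0.296. Names follow the gene table of assembly R64, which matched all 9271 probes.

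The difference came from a linear model over the 8 arrays (limma 3.58.1, R 4.3.3, lmFit and eBayes). Replicate number was the block, and each sugar mean was tested against 0 without it. The threshold was an adjusted p of 0.05 (Benjamini-Hochberg over all genes). The deviations from the sugar means of same-numbered arrays correlated at r = 0.522, 0.751, 0.724 and 0.634 for replicates 1 to 4, over the 0.1 asked of every pair. With the split of replicates 1 and 2 against 3 and 4 removed, which was read as the orientation from the correlations and not from a label, r was -0.321 to -0.251. The first check therefore does not favour same-numbered pairs over other pairs that keep this split. Arrays were paired by number all the same.

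Over all probes, named and unnamed, arrays of a sugar in opposite orientation correlated at r = -0.143 to 0.118, and over genes at 0.662 to 0.855. Arrays of different sugars in opposite orientation correlated at r = -0.312 to -0.152 over all probes and at 0.239 to 0.388 over genes. Signs were kept as deposited.

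The text names GCR1; the 15 highest and 15 lowest differences among called genes with the same sign in all 4 pairs and, however arrays were averaged in pairs, an unadjusted p under 0.05; 10 genes per direction called with opposite signs in the sugars; members of the glycolysis, glycolytic regulator, homologue and galactose lists; and called extremes of the other lists. Of these, a selection is given. The genes, lists and tests were chosen with earlier results of these data known. On simulated data for this comparison, with 200 of 5636 genes changed, the fit recovered 14.9%, 83.6% and 92.4% of genes changed by 0.5, 1 and 2, and 3.05% of its calls were false. The simulated noise was independent between arrays and far fewer genes were changed than were called here. Its false share therefore does not cover repeats of 1 culture. Python 3.11.15, pandas 2.3.3 and matplotlib 3.10.9 were used for summaries. Alternatives were other blocks, all 12 arrays, averaging arrays in pairs, centring, single probes, turned signs and leaving out each array.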

Additional observations from a re-analysis of the deposited data

Results flagged for a closer look

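Chance flags about 1 in 20 groups of arrays as holding an outlying value. HAP3 in glucose was flagged for replicate 3, at 0.256, while the other arrays read -0.012, -0.014 and 0.03. Of the same-numbered differences of AGA2, that of replicate 1 stood apart at -1.19, against -0.29, -0.26 and -0.39 for replicates 2, 3 and 4. Of those of MRPL39, that of replicate 2 stood apart at -1.267, against -1.97, -1.95 and -1.87 for replicates 1, 3 and 4. Of those of PGK1, that of replicate 4 stood apart at -0.346, against -0.51, -0.51 and -0.49 for replicates 1, 2 and 3.

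Some results pointed opposite ways in the sugars on every array, which flagged them; beyond the gene tests this was not tested for the lists. The list medians were below 0 on all galactose arrays and above 0 on all glucose arrays for galactose utilisation (median difference -1.64), peroxisome and beta-oxidation (-1.02), the respiratory chain and ATP synthase (-2.20) and sucrose and maltose use (-1.83). Those of the regulators of glycolytic genes (1.13) were above 0 on all galactose arrays and below 0 on all glucose arrays. Among called genes, 272 read below 0 on all 4 galactose arrays and above 0 on all 4 glucose arrays, and 628 the reverse.

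Of 1440 spots with no gene name here, limma called 9 in galactose minus glucose (0.62%), and 356 passed an unadjusted p under 0.05. Unnamed spots entered none of the gene comparisons above, only the correlations over all probes.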

How the results depend on the processing

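The number of genes called, 3718, was 2761 with no replicate block, 4070 with the orientation as the block and 3894 with all 12 arrays. With arrays averaged in pairs it was 3002, 3456 and 4861, depending on which were averaged, with arrays centred 3916, and with each probe alone 3405. Leaving out 1 array gave 3188 to 3642; under the block, leaving out a galactose array drops its glucose partner too. Requiring a value on all 8 arrays removed no gene. Centring turned the split from 2061 higher and 1657 lower into 1791 and 2125. With the signs of replicates 3 and 4 turned, limma called 0 genes in either direction, by over 1 or at all, and 43 had an unadjusted p under 0.05. Such turning removes what both orientations share.

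In the paired analysis most list counts stayed within 1.5 times. With no replicate block, cytosolic ribosomal protein genes were called higher in 17 and lower in 2 cases and glycolysis genes higher in 0 and lower in 5. With arrays centred, 24 cytosolic ribosomal protein genes were called higher. Leaving out 1 array gave 34 to 69 of these higher and 2 to 13 lower, 5 to 9 glycolysis genes lower, 1 to 2 mitochondrial ribosomal protein genes higher and 0 to 1 ribosome biogenesis genes lower. Median differences that changed sign were all small. With arrays centred they were -0.029 for cell wall, -0.002 for cyclins, -0.033 for glucose repression and Snf1 and -0.078 for regulators of respiratory genes. Without replicate 1 of either sugar the strain and mating type markers were at 0.043, from a range of -0.338 to 0.043 over arrays left out, and without replicate 2 the pyruvate decarboxylase and alcohol dehydrogenase genes were at 0.088, from a range of -0.245 to 0.088. Uncalled genes that changed sign were CDC19 (-0.008), GPM1 (-0.059) and TDH1 (-0.078) with arrays centred, FBA1 without replicate 2 (0.021, range -0.293 to 0.021) and TDH1 without replicate 4 (-0.004, range -0.004 to 0.162). The cause of these changes was not tested.

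Of 136 called genes named with values, 123 kept call and direction in every fit that kept the deposited signs, and 0 changed sign. The call was lost without the block by 12, namely AGA2, ENO1, ENO2, HHT1, MF(ALPHA)2, PDC1, PDC5, PFK2, PGK1, RAP1, RPS2 and TDH2, and by GAL2 without replicate 3. Of the 12, AGA2, MF(ALPHA)2, PDC1, PDC5, PFK2, PGK1, RAP1 and TDH2 also lost the call in at least 1 fit that kept the block. Calls were gained in at least 1 setting by CDC19, GAL10, PFK1, PYK2 and TPI1. Gains with arrays averaged or left out rest on few values per gene and on the spread pooled over genes.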

Other observations

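Genes of export and acid stress held the gene with the highest ratio in galactose among the extremes. Besides TPO2, the polyamine exporter gene TPO3 was above 0 in both sugars and higher in galactose (2.26 ± 0.70 against 1.24 ± 0.16), and TPO1 was at 0.64 ± 0.18 and -0.47 ± 0.24. PDR12, the gene of a pump for weak acids, went the other way, at 0.032 ± 0.28 in galactose and 1.03 ± 0.079 in glucose. Of 12 genes listed, 5 were called higher in galactose and 3 lower, in all near the 66.0% called over all genes, with a median difference of -0.14.

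Genes of respiratory growth and stationary phase were lower in galactose in 18 of 23 cases and higher in 1. Over all genes 29.4% were lower and 36.6% higher. The list member with a higher ratio was HSP30, the gene of a membrane heat shock protein, at 2.03 ± 0.29 in galactose and -0.34 ± 0.35 in glucose. The mitochondrial outer membrane protein gene OM14 was at -1.26 ± 0.55 and 2.13 ± 0.44. Of 15 purine genes 4 were higher and 1 lower, the IMP dehydrogenase gene IMD3 (-0.88 ± 0.12), against 36.6% and 29.4% of all genes.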
